A study of Oryza sativa Japonica Group with 49 samples.

Results

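The genes described here were lower under drought and higher under heat than under normal conditions in seedlings of the japonica rice variety ZH11. They were chosen by their CPM in these seedlings, where CPM is the count of a gene divided by the total count of its library and multiplied by 1000000. A gene was taken when its highest CPM among the drought libraries was below 0.5 times its lowest CPM among the normal libraries, its lowest CPM among the heat libraries was above 2 times its highest normal CPM, and its mean normal CPM was at least 1. Of 55986 gene models, 18319 reached this mean level. The drought criterion was met by 1710 of them (9.33%), the heat criterion by 2168 (11.8%), and both by 4. The 4 genes are OsHSFA2d (also named OsHSF7, LOC_Os03g06630), described as a heat stress transcription factor, LOC_Os07g43740, described as a zinc finger protein of the C3HC4 type, LOC_Os03g56930, described as app1, and LOC_Os05g50500, which carries no description in the annotation used here. By their identifiers, 2 of them lie on chromosome 3, 1 on chromosome 5 and 1 on chromosome 7. As the ZH11 seedling libraries chose the genes, values in those libraries are a description without a test, and tests were run only on libraries that the rule did not use.

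The RNA-seq data came from 31 libraries of 2 experiments of a study on the NAC transcription factor ONAC023 in drought and heat tolerance. In the first experiment, 4-leaf stage seedlings of ZH11 were sampled under drought, heat and normal conditions (3 libraries each), seedlings of the japonica variety DJ under drought and normal conditions (3 libraries each), and ZH11 panicles under heat and normal conditions (2 libraries each). In the second, onac023, a single mutant line of DJ with a T-DNA insertion, was compared with DJ-WT, wild-type plants segregated from the same T-DNA population, under heat and under drought (3 libraries per line and stress), with no library under normal conditions. According to the labels of the seedling libraries, drought meant withholding water for 7 d until soil water fell below 10%, and heat meant 45 °C for 6 h. For the heated panicles, the labels used here give no temperature or time. The methods give other durations for seedlings, and a lower temperature with a shorter daily exposure for heat at the flowering stage. Seedlings were pooled within each repeat of a treatment.

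Heat stress transcription factors (HSFs) bind heat shock elements in promoters and drive the transcription of chaperone genes, among them the small heat shock proteins of the hsp20 family. Plant HSFs form a large family whose members differ in when and where they act, and class A2 members are known as strongly heat-induced factors. Rice OsHSFA2d is known to be spliced into more than 1 form, with the functional form produced under heat. Counts per gene do not separate such forms. Proteins with a C3HC4 RING finger often act as E3 ubiquitin ligases, which mark other proteins for degradation. Drought, in contrast, is marked in rice leaves by accumulation of dehydrins and other late embryogenesis abundant (LEA) proteins and by loss of photosynthesis transcripts.

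Total counts were 39789339 to 132110274 per library. The marker genes followed the labels in ZH11 seedlings: the summed CPM of 19 dehydrin and LEA genes was 10106 to 21485 under drought, against 29.0 to 39.6 under normal conditions, and that of 19 hsp20 genes was 18396 to 105542 under heat, against 27.1 to 33.7 under normal conditions. A pair of floral MADS genes summed to 208 to 319 CPM in panicles and to at most 2.64 CPM in seedlings. ONAC023 had 0 to 9 counts in onac023 libraries, against 65 to 257 in DJ-WT libraries. The DJ-WT libraries stood apart in another respect. Of 36 genes with at least 1 CPM in every ZH11 seedling library and at most 0.1 CPM in every DJ seedling library, 17 to 23 reached 0.5 CPM in onac023 libraries, against 34 to 36 in DJ-WT libraries. Of 54 genes with the reverse pattern, 45 to 54 reached 0.5 CPM in onac023 libraries, against 42 to 54 in DJ-WT libraries. Libraries of both lines thus held transcripts typical of both varieties, and those of DJ-WT held more of the genes typical of ZH11. The part of this in the differences between lines described below was not tested. In these samples of seedlings and panicles, fewer cells of a type and less RNA per cell cannot be told apart.

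In ZH11 seedlings, OsHSFA2d had 5.27, 6.06 and 7.30 CPM under drought and 290, 1334 and 1313 CPM under heat, against 40.1, 35.8 and 35.5 CPM under normal conditions. The mean level was thus 5.98-fold lower under drought and 26.4-fold higher under heat than under normal conditions. The first heat library was far below the other two. It also had the lowest summed CPM of hsp20 genes (18396, against 105542 and 60682 in the second and the third). LOC_Os07g43740 had 3.90, 3.13 and 6.03 CPM under drought and 316, 347 and 487 CPM under heat, against 20.3, 17.1 and 17.5 CPM under normal conditions, a mean level 4.20-fold lower under drought and 21.0-fold higher under heat. These are the transcription factor and the RING finger gene, and both were abundant under heat.

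The other two genes were scarce. LOC_Os03g56930 had 0, 0.241 and 0.0735 CPM under drought (0, 14 and 3 counts) and 37.0, 18.8 and 27.1 CPM under heat, against 2.28, 1.95 and 2.01 CPM under normal conditions. LOC_Os05g50500 had 0, 0.206 and 0 CPM under drought (0, 12 and 0 counts) and 9.19, 14.2 and 7.61 CPM under heat, against 2.81, 3.24 and 2.18 CPM under normal conditions. Both genes were thus nearly undetected under drought, and the drought side of their pattern rested on 17 and 12 counts in all.

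**Figure D1:**
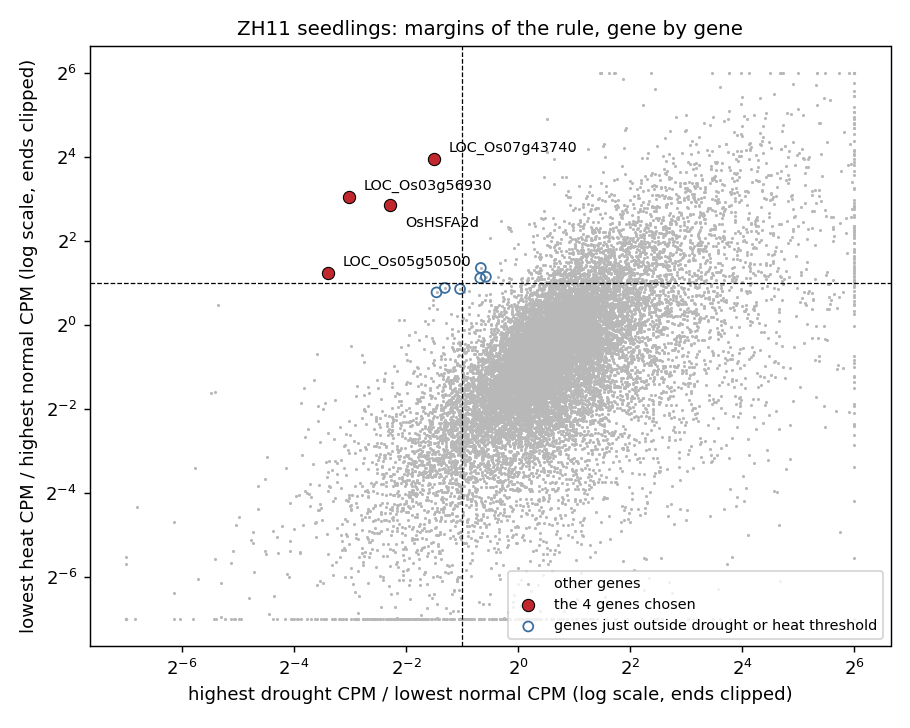
For each gene with a mean of at least 1 CPM in ZH11 seedlings under normal conditions, the highest drought CPM over the lowest normal CPM (horizontal, log scale) is plotted against the lowest heat CPM over the highest normal CPM (vertical, log scale), with values past the ends drawn at the ends. The dashed lines mark the thresholds of 0.5 and 2, and the 4 chosen genes (red) are the only points in the upper left field.

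The margins to the thresholds differed among the 4 genes. The highest drought CPM was 0.206 times the lowest normal CPM for OsHSFA2d, 0.353 times for LOC_Os07g43740, 0.123 times for LOC_Os03g56930 and 0.0949 times for LOC_Os05g50500. The lowest heat CPM was 7.25 times the highest normal CPM for OsHSFA2d, 15.6 times for LOC_Os07g43740, 8.27 times for LOC_Os03g56930 and 2.35 times for LOC_Os05g50500, which was therefore nearest to the heat threshold. Just outside the drought threshold were LOC_Os09g25810 (0.626), LOC_Os03g50130 (0.631) and LOC_Os02g39710 (0.672). Just outside the heat threshold were LOC_Os03g10260, described as an expressed protein (1.85), LOC_Os03g44440, described as a cyclic nucleotide-gated ion channel (1.82), and LOC_Os08g15050 (1.72). A further 5 genes missed only the minimum level. The nearest of these were LOC_Os04g48350 (0.753 CPM), LOC_Os05g44090 (0.390 CPM) and LOC_Os06g36930 (0.252 CPM), and the last of them carries an HSF-type DNA-binding domain and averaged 1277 CPM under heat.

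**Figure D2:**
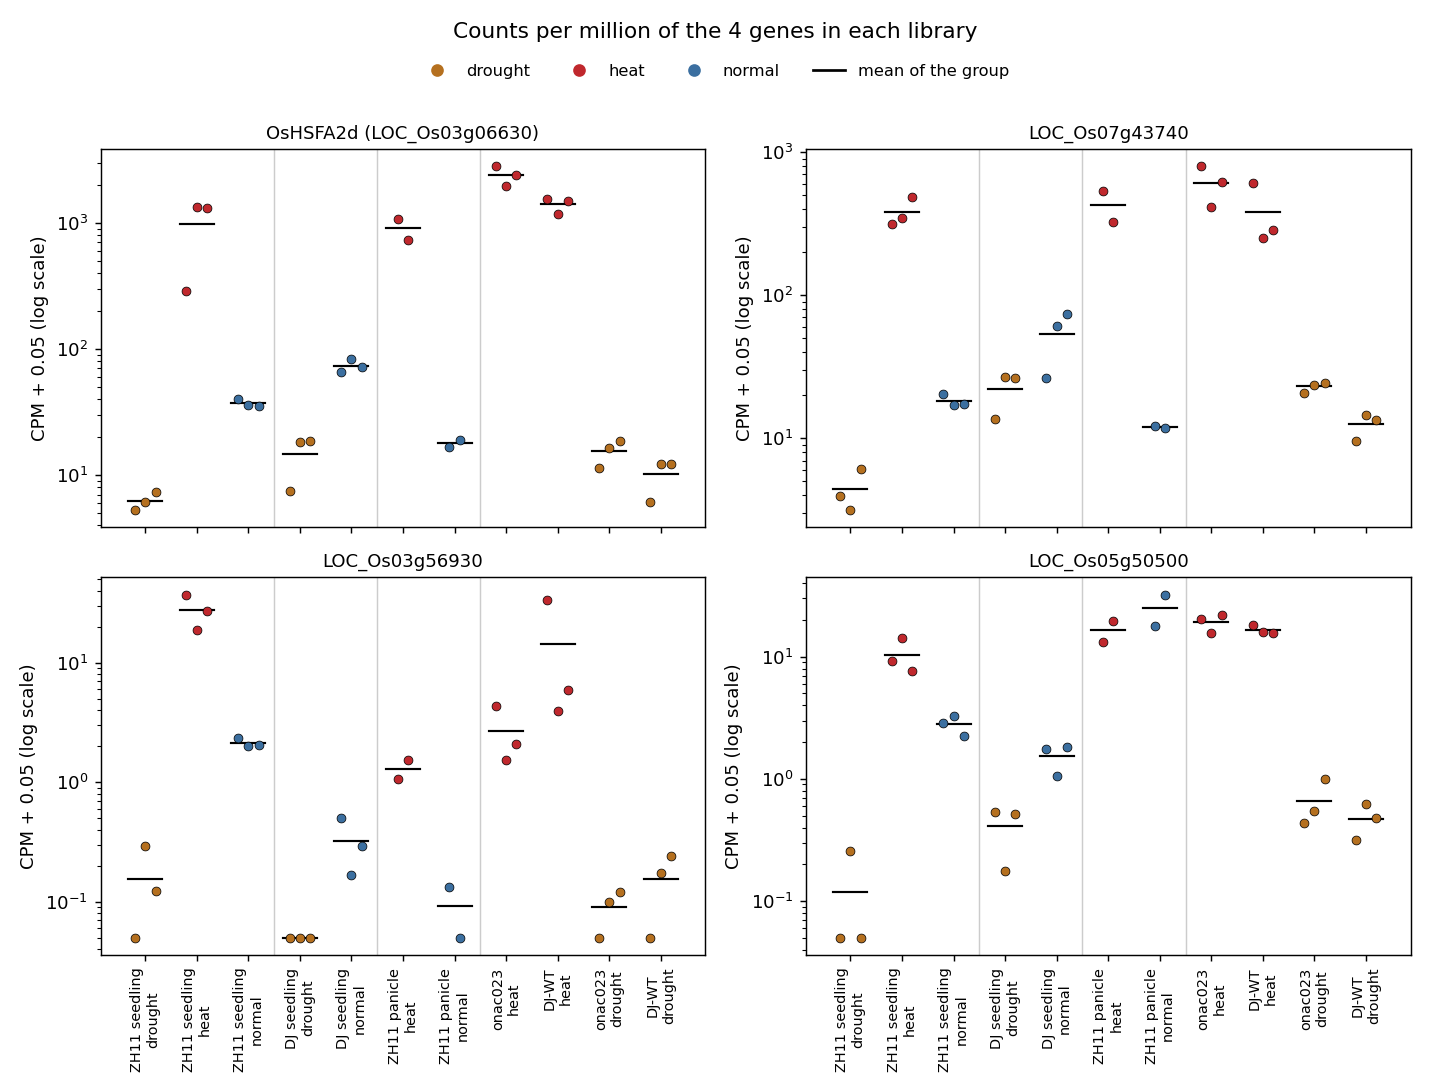
CPM of the 4 genes in each of the 31 libraries (points, vertical log axis with 0.05 CPM added so that values of 0 can be drawn), by group (horizontal), with the group mean as a bar. OsHSFA2d and LOC_Os07g43740 had at least 290 and 250 CPM in every heat library, whereas LOC_Os05g50500 was as high in panicles under normal conditions (17.8 and 32.1 CPM) as under heat (13.1 and 19.7 CPM).

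The drought side of the pattern could be tested in DJ, a variety that the rule did not use. OsHSFA2d had 7.45, 18.1 and 18.7 CPM in DJ seedlings under drought, against 65.6, 83.0 and 72.3 CPM under normal conditions, and the groups did not overlap. It fell by 1.76 ± 0.31 on the log2 scale (SE, n = 3 each; adjusted p = 0.000655, edgeR quasi-likelihood test with Benjamini-Hochberg adjustment over all genes tested). LOC_Os05g50500 had 0.486, 0.126 and 0.466 CPM under drought, against 1.72, 1.00 and 1.79 CPM under normal conditions, and fell by 1.51 ± 0.47 on the log2 scale (edgeR, adjusted p = 0.0159). LOC_Os07g43740 had 13.5, 26.7 and 26.5 CPM under drought, against 26.2, 60.8 and 73.5 CPM under normal conditions. Its groups overlapped through the first normal library, and its log2 fold change of -0.69 ± 0.37 did not pass (edgeR, adjusted p = 0.113), although it did without that library (-1.02 ± 0.29, adjusted p = 0.0121). Its mean CPM (22.3 under drought, against 53.5) differed by more than 2-fold, and the scaling described below moved the fitted change towards 0. LOC_Os03g56930 had 0 counts in all 3 drought libraries, against 19, 7 and 11 counts (0.453, 0.117 and 0.242 CPM) under normal conditions, and was too low to be tested. The most frequent low value in these libraries was 2, so that the most a value of 0 allows was taken as 6 counts per library (0.139 to 0.151 CPM). The normal mean of 0.271 CPM was 1.86-fold above the mean of this floor. The second normal library (0.117 CPM) was below it, so that no least size of the change can be given.

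A call needed more than a 2-fold change and an adjusted p under 0.05. In DJ seedlings, OsHSFA2d was thus called lower and LOC_Os07g43740 was not, where 29.1% of all 24257 genes tested were called lower, so that the 1 call does not set the genes apart. LOC_Os05g50500 also passed both limits. The filter on low counts needed 3 libraries above 0.235 CPM, and this gene had 2 under drought and 3 under normal conditions. Its drought libraries alone were thus too few to pass. Its call is not counted, although the filter did not fix its direction. Drought markers moved in the same libraries: the 19 dehydrin and LEA genes summed to 33957 to 46780 CPM under drought, against 38.2 to 44.5 CPM under normal conditions, and the 11 antenna and photosystem genes to 617 to 975 CPM, against 11645 to 13395 CPM.

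In DJ seedlings under drought, OsHSFA2d differed in direction from the other listed heat stress transcription factor genes that were tested. The annotation tables used here describe 11 genes as such. The annotation covers genes that the study found to differ between DJ-WT and onac023 under drought or heat, and genes of proteins recovered with ONAC023. The list is thus not an independent sample of the family, and comparisons of the lines reuse the libraries that chose it. Drought markers also differed between these lines, as given below, so that the list may favour genes that move under drought. This was not tested. In DJ seedlings under drought, 10 of the 11 genes were tested, 9 were called higher and OsHSFA2d was the 1 called lower. Of all 24257 genes tested, 25.2% were called higher and 29.1% lower. The median log2 fold change was 2.49 over the list, against -0.14 over all genes. OsHsfA7 (LOC_Os01g39020), another class A factor, rose by 7.76 ± 0.18 on the log2 scale, OsHsfB2b (LOC_Os08g43334), of the class B factors that lack the activation domain of class A, by 3.35 ± 0.23, and OsHsfA2c (LOC_Os10g28340), a class A2 factor like OsHSFA2d, by 2.32 ± 0.22 (edgeR, adjusted p = 7.95e-09, 1.56e-06 and 1.07e-05). LOC_Os06g36930, which missed the rule in ZH11 seedlings only by its low normal level, averaged 2.67 CPM under drought in DJ, against 1.00 CPM under normal conditions, and was called higher (1.95 ± 0.42, adjusted p = 0.00226).

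In the ZH11 seedlings that chose OsHSFA2d, the values of this family are a description. Of the 11 heat stress transcription factor genes, 6 reached the mean normal level of the rule, 5 of them met the heat criterion, and 1, OsHSFA2d, met the drought criterion. LOC_Os06g36930 was also below the drought threshold there, with a mean of 0.0496 CPM under drought, against 0.252 CPM under normal conditions, but it was under the minimum level. OsHSFA2d averaged 6.21 CPM under drought and 979 CPM under heat, against 37.1 CPM under normal conditions. OsHsfA2c averaged 50.2 CPM under drought and 717 CPM under heat, against 36.9 CPM under normal conditions, and thus did not share the low drought level. The hsp20 genes were higher under drought as well, with a summed 234 to 470 CPM in ZH11 seedlings, against 27.1 to 33.7 CPM under normal conditions, and 2196 to 4204 CPM in DJ seedlings, against 240 to 382 CPM. OsHSFA2d was thus lower in libraries in which these chaperone genes were higher.

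**Figure D3:**
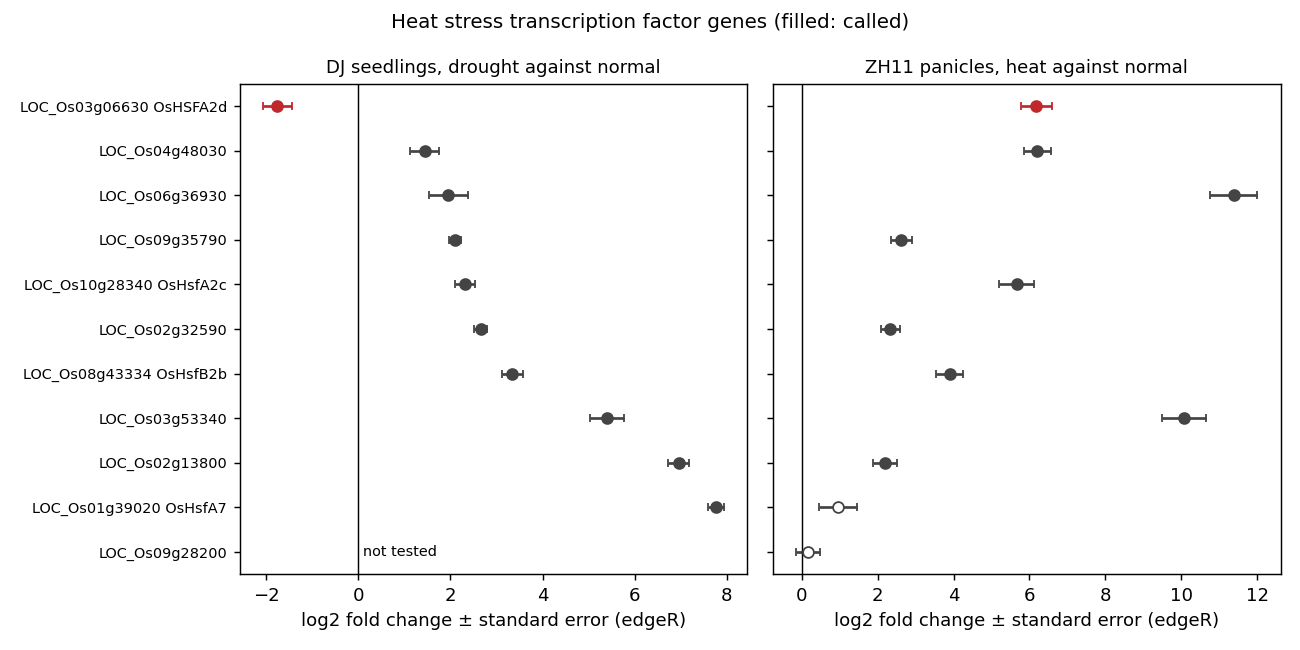
Log2 fold changes with standard errors (edgeR) of the 11 genes described as heat stress transcription factors, in DJ seedlings under drought against normal conditions (left, n = 3 each) and in ZH11 panicles under heat against normal conditions (right, n = 2 each). Filled points were called. OsHSFA2d (red) is the 1 gene below 0 on the left (-1.76), and it is among the 9 called higher on the right (6.19).

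The heat side of the pattern could be tested in ZH11 panicles, with 2 libraries per group. OsHSFA2d had 1082 and 735 CPM under heat, against 16.6 and 18.9 CPM under normal conditions, and rose by 6.19 ± 0.41 on the log2 scale (edgeR, adjusted p = 0.00517). LOC_Os07g43740 had 534 and 325 CPM under heat, against 12.1 and 11.8 CPM, and rose by 5.68 ± 0.43 (edgeR, adjusted p = 0.00552). LOC_Os03g56930 had 1.01 and 1.49 CPM under heat, against 0.0840 and 0 CPM (8 and 0 counts), and was called higher (5.30 ± 1.06, edgeR, adjusted p = 0.0386). This call was lost without either heat library (adjusted p = 0.115 and 0.0737 without heat replicate 1 and 2), and its fitted change was 10.32 without the first normal library, which left a single normal library at 0 counts. LOC_Os05g50500 went another way. It had 13.1 and 19.7 CPM under heat, against 17.8 and 32.1 CPM under normal conditions, the groups overlapped, and the log2 fold change of -0.16 ± 0.31 did not pass (edgeR, adjusted p = 0.750).

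In panicles under heat, OsHSFA2d and LOC_Os07g43740 were thus called higher and LOC_Os05g50500 was not, where 8.57% of all 27238 genes tested were called higher. LOC_Os03g56930 passed the filter on low counts only through its heat libraries, so that it had to be higher to be tested, and its call is not counted. The dehydrin and LEA genes were higher under heat as well. They summed to 2279 and 3496 CPM in panicles under heat, against 141 and 181 CPM under normal conditions, with 13 of the 18 tested called higher, and to 1055 to 2442 CPM in ZH11 seedlings under heat, against 29.0 to 39.6 CPM. The 19 hsp20 genes summed to 42454 and 91745 CPM under heat, against 313 and 349 CPM under normal conditions. Of the 11 heat stress transcription factor genes, 9 were called higher and 0 lower (edgeR), with a median log2 fold change of 3.90, against -0.0045 over all genes. Among the 34 genes described as C3HC4 zinc fingers, 33 were tested, 12 were called higher and 1 lower, and the median log2 fold change was -0.0025. The change of LOC_Os07g43740 stood well above that median, but so did that of another gene of this list, OsRING-1 (LOC_Os02g52210, 5.65 ± 0.34).

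In the second experiment, heat was set against drought within each line. In onac023 seedlings, OsHSFA2d had 2812, 1966 and 2396 CPM under heat, against 11.3, 16.4 and 18.7 CPM under drought, a difference of 7.91 ± 0.32 on the log2 scale (SE, n = 3 each). In DJ-WT seedlings it had 1558, 1169 and 1480 CPM under heat, against 6.11, 12.1 and 12.1 CPM under drought (7.75 ± 0.37). The onac023 heat libraries held the highest levels of OsHSFA2d among all groups. LOC_Os07g43740 had 797, 417 and 624 CPM under heat in onac023, against 20.8, 23.7 and 24.5 CPM under drought (5.38 ± 0.29). In DJ-WT it had 607, 250 and 284 CPM under heat, against 9.57, 14.5 and 13.3 CPM under drought (5.57 ± 0.43).

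The scarce genes also differed. LOC_Os03g56930 had 4.30, 1.48 and 2.05 CPM under heat in onac023, against 0, 0.0499 and 0.0706 CPM under drought (6.59 ± 0.71), and 33.2, 3.89 and 5.83 CPM under heat in DJ-WT, against 0, 0.124 and 0.192 CPM under drought (7.73 ± 1.23). Its first DJ-WT heat library was far above the other two, and that library also differed in its dehydrin and LEA genes (a summed 848 CPM, against 1889 and 2039 CPM in the other two). LOC_Os05g50500 had 20.3, 15.6 and 21.7 CPM under heat in onac023, against 0.388, 0.499 and 0.941 CPM under drought (5.61 ± 0.31), and 18.1, 15.9 and 15.6 CPM under heat in DJ-WT, against 0.266, 0.578 and 0.427 CPM under drought (5.92 ± 0.29).

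OsHSFA2d, LOC_Os07g43740 and LOC_Os05g50500 were thus called higher under heat than under drought in both lines by edgeR, with adjusted p of 3.02e-08 to 1.85e-07 in onac023 and 1.17e-05 to 6.88e-05 in DJ-WT, and for these 3 genes no library under heat overlapped one under drought. Among all genes tested, 25.5% were called higher in onac023 and 18.2% in DJ-WT, and 23.7% (onac023) and 16.1% (DJ-WT) were higher in CPM without overlap. LOC_Os03g56930 again passed the filter through its heat libraries alone, so that its call (edgeR, adjusted p = 1.77e-05 in onac023 and 0.00171 in DJ-WT) is not counted. With no library under normal conditions, these comparisons do not say which of the stresses moved a gene. The size of the difference between heat and drought was set against the line in 1 fit of the 12 libraries. The log2 difference, onac023 minus DJ-WT, was 0.24 ± 0.39 for OsHSFA2d, -0.11 ± 0.47 for LOC_Os07g43740, -1.04 ± 2.20 for LOC_Os03g56930 and -0.23 ± 0.44 for LOC_Os05g50500 (edgeR, adjusted p = 0.671, 0.884, 0.747 and 0.716). None of the 4 was called, and none had an unadjusted p under 0.05, against 14.7% called higher and 8.91% called lower of 25773 genes tested (3789 higher and 2297 lower, or 3161 and 2990 with RLE size factors).

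**Figure D4:**
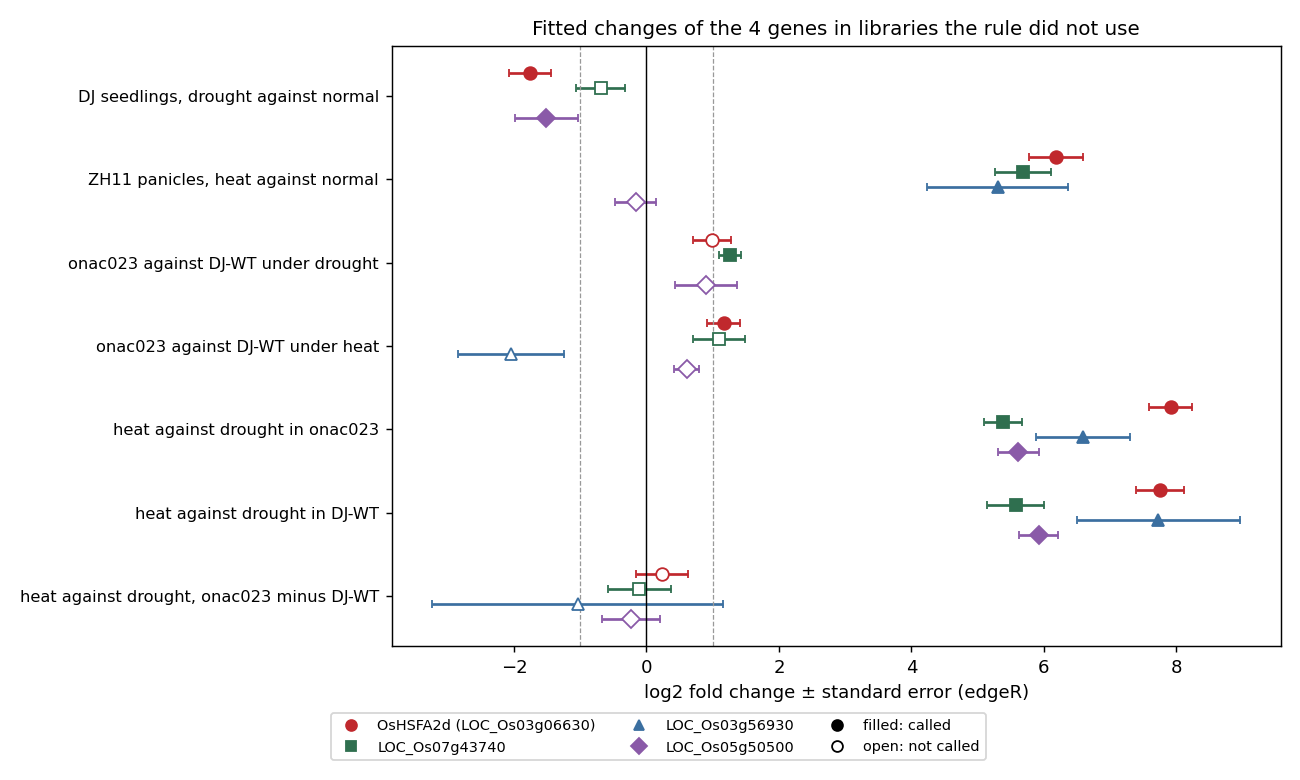
Log2 fold changes with standard errors (edgeR, horizontal) of the 4 genes in the 7 comparisons of libraries that the rule did not use (vertical). Filled symbols were called, with more than a 2-fold change and an adjusted p under 0.05 (dashed lines at -1 and 1), and genes too low to be tested have no symbol. The differences between heat and drought lie between 5.38 and 7.91, and those between the lines between -2.04 and 1.26.

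The lines were compared under each stress, to see whether loss of ONAC023 went with other levels of the 4 genes. These comparisons share their libraries with those of heat against drought. Under drought, OsHSFA2d had 11.3, 16.4 and 18.7 CPM in onac023, against 6.11, 12.1 and 12.1 CPM in DJ-WT, and the groups overlapped. The difference of 0.99 ± 0.29 on the log2 scale had an adjusted p of 0.0172 (edgeR) but fell just under the 2-fold limit and was not called. The mean CPM of OsHSFA2d (15.5 against 10.1) differed by less, and the scaling described below widened the fitted difference. LOC_Os07g43740 had 20.8, 23.7 and 24.5 CPM in onac023, against 9.57, 14.5 and 13.3 CPM in DJ-WT, and was called higher (1.26 ± 0.16, edgeR, adjusted p = 0.000303). Its mean CPM (23.0 against 12.5) differed by less than 2-fold, so that this call rested on the scaling described below. LOC_Os05g50500 had 0.388, 0.499 and 0.941 CPM in onac023, against 0.266, 0.578 and 0.427 CPM in DJ-WT, without a call (0.90 ± 0.47, edgeR, adjusted p = 0.132). LOC_Os03g56930 had 5 counts in all in onac023, against 15 in DJ-WT, and was not tested.

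Thus 1 of the 4 genes was called higher in onac023 under drought, with LOC_Os03g56930 not tested, where 7.21% of all 24273 genes tested were called higher. When DJ-WT was replaced by the DJ seedlings under drought of the first experiment, this call was lost: the log2 difference of LOC_Os07g43740 was 0.14 ± 0.23 (edgeR, adjusted p = 0.784) and that of OsHSFA2d 0.16 ± 0.32 (adjusted p = 0.823). Calls over all genes were then few as well, with 0.923% of 22978 genes called higher and 0.357% lower. Drought markers differed between the lines as well. The dehydrin and LEA genes summed to 42770 to 50212 CPM in onac023, against 23160 to 27475 CPM in DJ-WT, and to 33957 to 46780 CPM in the DJ seedlings. The antenna and photosystem genes summed to 569 to 702 CPM in onac023, against 2609 to 3507 CPM in DJ-WT. Their part in the difference of LOC_Os07g43740 was not tested. Of the heat stress transcription factor genes, 10 were tested and 8 were called higher in onac023 under drought, all but OsHSFA2d and LOC_Os02g13800, with a median log2 difference of 1.17 over the list, against -0.086 over all genes. Of the C3HC4 zinc finger genes, 33 were tested, 11 were called higher and 8 lower. The annotation used here covers genes that the study picked by their difference between these lines. The counts, medians and sums of these lists between the lines are thus a description only.

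Under heat, OsHSFA2d had 2812, 1966 and 2396 CPM in onac023, against 1558, 1169 and 1480 CPM in DJ-WT, and was called higher (1.16 ± 0.25, edgeR, adjusted p = 0.0173). The groups did not overlap. Their mean CPM (2391 against 1403) differed by less than 2-fold, so that the call rested on the scaling described below. LOC_Os07g43740 had 797, 417 and 624 CPM in onac023, against 607, 250 and 284 CPM in DJ-WT, with overlap through the first DJ-WT library (1.09 ± 0.39, edgeR, adjusted p = 0.0908). LOC_Os03g56930 had 4.30, 1.48 and 2.05 CPM in onac023, against 33.2, 3.89 and 5.83 CPM in DJ-WT (-2.04 ± 0.80, edgeR, adjusted p = 0.113). LOC_Os05g50500 had 20.3, 15.6 and 21.7 CPM in onac023, against 18.1, 15.9 and 15.6 CPM in DJ-WT (0.61 ± 0.19, edgeR, adjusted p = 0.0631). Hence the transcription factor was higher in the mutant, and the other 3 genes did not pass.

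In this comparison, 1 of the 4 genes was called higher, against 2.24% of all 23459 genes tested. The call of OsHSFA2d was lost without DJ-WT replicate 2 or 3 or without onac023 replicate 1 or 3 (edgeR, adjusted p = 0.0586 to 0.0715), with log2 differences of 1.01 to 1.19. Libraries of the same replicate number deviated together under heat, and with the replicate number as a block LOC_Os07g43740 was called higher (1.14 ± 0.17, adjusted p = 0.00580) and LOC_Os03g56930 lower (-1.60 ± 0.31, adjusted p = 0.0124), where 2.70% of all genes were called higher and 10.3% lower with the block, and 9.04% were called lower without it. In each of the 3 pairs, onac023 was above DJ-WT for OsHSFA2d and LOC_Os07g43740 and below DJ-WT for LOC_Os03g56930. LOC_Os03g56930 was also higher in ZH11 seedlings under normal conditions (1.95 to 2.28 CPM) than in DJ seedlings (0.117 to 0.453 CPM), and the DJ-WT libraries held more of the genes typical of ZH11, as given above. Without the first DJ-WT heat library, its log2 difference was -0.48.

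Other heat genes differed between the lines in the same libraries. As under drought, the lists come from genes that the study picked by this difference, so that their counts and medians are a description only. The hsp20 genes summed to 100147 to 139118 CPM in onac023 under heat, against 72538 to 84342 CPM in DJ-WT, and of the 19 genes 8 were called higher and 3 lower, with a median log2 difference of 0.99. Of the 11 heat stress transcription factor genes, 5 were called higher in onac023 and 0 lower, with a median log2 difference of 0.82, against -0.027 over all genes. Besides OsHSFA2d these were LOC_Os03g53340, LOC_Os04g48030, described as heat stress transcription factor B-1, LOC_Os06g36930 and OsHsfA2c (LOC_Os10g28340), with log2 differences of 1.21 to 1.45, near the 1.16 of OsHSFA2d. Of the C3HC4 zinc finger genes, 0 of the 33 tested were called higher by edgeR and 11 were called lower, with a median of -0.52, against which LOC_Os07g43740 stood at 1.09. The other gene described as app1, LOC_Os07g04960, was at 0 CPM in all onac023 heat libraries, against a mean of 0.872 CPM in DJ-WT.

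Levels across the 11 groups were also ranked, although the groups come from 2 experiments with counts that were not normalized to each other. Across all 11 groups, the levels of OsHSFA2d ran from a mean of 2391 CPM in onac023 under heat to 6.21 CPM in ZH11 seedlings under drought. The 4 heat groups came first, the normal seedlings of DJ and ZH11 next (73.6 and 37.1 CPM), and then the normal panicles (17.7 CPM) and the 4 drought groups. The 3 heat groups below onac023 overlapped their neighbours, and so did all groups from the normal panicles down. LOC_Os07g43740 also had its 4 heat groups first, from 613 CPM in onac023 to 380 CPM in DJ-WT, each overlapping the next heat group. Below them its order no longer followed the stress. Its mean was 23.0 CPM in onac023 and 22.3 CPM in DJ under drought, above the 18.3 CPM of normal ZH11 seedlings, and DJ under drought overlapped both other groups.

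For LOC_Os03g56930, ZH11 seedlings under heat were highest (27.6 CPM), and its normal level in ZH11 seedlings (2.08 CPM) was within the range of onac023 under heat. All 4 drought groups averaged at most 0.105 CPM. For LOC_Os05g50500, the highest mean was that of panicles under normal conditions (25.0 CPM), which overlapped onac023 under heat (19.2 CPM), the next group in order. The 4 drought groups were lowest, from 0.609 CPM in onac023 to 0.0688 CPM in ZH11 seedlings. In seedlings its heat groups were highest and its drought groups lowest, whereas panicles under normal conditions overlapped the heated seedlings of both lines.

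The genes just outside the thresholds gave a mixed picture in the other libraries, described here by means. LOC_Os03g50130 averaged 22.1 CPM in DJ seedlings under drought, against 69.3 CPM under normal conditions, and 237 CPM in panicles under heat, against 48.2 CPM. LOC_Os04g48350 averaged 0.123 CPM in DJ seedlings under drought, against 0.995 CPM, and 18.6 CPM in panicles under heat, against 0.387 CPM. By contrast, LOC_Os09g25810 averaged 8.35 CPM in DJ seedlings under drought, against 4.60 CPM under normal conditions, and 34.0 CPM in panicles under heat, against 37.9 CPM. LOC_Os08g15050 averaged 31.5 CPM in DJ seedlings under drought, against 126 CPM, and 137 CPM in panicles under heat, against 8.47 CPM. Among the 9 genes just outside the thresholds, the mean in DJ was higher under drought in LOC_Os09g25810, LOC_Os03g10260 (1.68 CPM, against 0.0334 CPM) and LOC_Os06g36930. In panicles, the mean was lower under heat in LOC_Os09g25810, LOC_Os03g10260 (3.85 CPM, against 7.08 CPM) and LOC_Os05g44090 (0.0545 CPM, against 0.148 CPM).

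The scale also bears on these values. CPM divides by the total count, whereas the fitted changes use TMM factors, which shifted every log2 fold change relative to CPM. The shift was -0.44 for drought and 0.081 for heat in ZH11 seedlings, 0.55 for drought in DJ seedlings, 0.47 for heat in panicles, 0.37 and 0.38 between the lines under drought and heat, and 0.63 in onac023 and 0.64 in DJ-WT between heat and drought. With TMM-scaled CPM the rule chose 7 genes, and with RLE-scaled CPM 9 genes, and the 4 genes described here were among them in both cases. With a mean normal level of at least 5 CPM, OsHSFA2d and LOC_Os07g43740 remained. Leaving out 1 ZH11 seedling library at a time gave 4 to 8 genes, each time with the 4 among them.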

How the data were processed

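According to the methods, the authors cleaned reads with fastp and used STAR for alignment to the MSU assembly of rice, whereas the submitters' processing notes name HISAT2 and StringTie. The authors deposited estimated counts of 55986 gene models per library as whole numbers without normalization, used here without rounding. The tool that made them is not given in the sources used here. The tests had been planned for counts of reads. The most frequent low value was 2 in 21 libraries and 4 in 10. ChIP–seq data of the series were left out, and 0 columns of the tables were unused.

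Tests on the counts used the quasi-likelihood test of edgeR 4.0.16 under R 4.3.3 (TMM, filterByExpr, Benjamini-Hochberg over all genes tested). A call needed more than a 2-fold change and an adjusted p under 0.05. The standard error is the size of the log2 change over the root of its F statistic. Alternatives were DESeq2 1.42.0, RLE size factors, no filter, the replicate block, all libraries in 1 fit, counts divided by the most frequent low value of their library (in DJ and panicles), each library left out and other versions of the rule. Same-numbered libraries deviated together for onac023 and DJ-WT under heat (correlations of 0.114 to 0.384 in the 3 pairs, numbers from the labels), and the correlations were -0.113 to 0.0966 in the other comparisons. The scripts were tested on simulated data.

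Gene names and descriptions (5048 identifiers) came from supplementary tables of the study. The reference gene table matched 0 identifiers. The 4 genes, the rule and the lists were chosen with earlier results of these data known, and the lists of heat stress transcription factors, C3HC4 zinc fingers and app1 genes after the 4 genes were seen. Named are the 4 genes, the 3 genes just outside each threshold and examples from these lists. The floor for values of 0, 3 times the most frequent low value, covers counting error only, and CPM is the count over the library's total count.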

Additional observations from a re-analysis of the deposited data

How the results depend on the processing

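The calls of OsHSFA2d, LOC_Os07g43740 and LOC_Os05g50500 between heat and drought in both lines, and those of OsHSFA2d in DJ seedlings and of OsHSFA2d and LOC_Os07g43740 in panicles, held under all alternatives run. So did the call of LOC_Os05g50500 in DJ seedlings (edgeR and DESeq2, adjusted p = 0.00709 to 0.0474), which is not counted. The calls of LOC_Os03g56930 between heat and drought held as well, which is no sign of stability, as the filter set their direction. Dividing counts by the most frequent low value changed no call of the 4 genes in DJ seedlings or panicles. The rule chose 4 genes as described, 7 with TMM-scaled and 9 with RLE-scaled library sizes, 2 with a mean normal level of at least 5 CPM, and 4 to 8 when each library was left out. For onac023 against DJ-WT under drought, 2 genes were called higher with DESeq2, RLE size factors or the replicate block, 1 to 2 when each library was left out, and 0 when the DJ seedlings under drought replaced DJ-WT. The gene added was OsHSFA2d, whose log2 difference lay just beyond the 2-fold limit (1.03 with DESeq2 and with RLE, 1.02 ± 0.13 with the replicate block, adjusted p = 0.00121, where libraries share only a number). Under heat, 2 genes were called higher with DESeq2, with the replicate block and with all libraries in 1 fit, 0 to 2 when each library was left out, and 1 lower with the block. The block changed no other call. Leaving out each library moved log2 fold changes that were not called across 0: -0.53 to 0.33 for LOC_Os05g50500 in panicles and, for heat against drought between the lines, -0.023 to 0.41 for OsHSFA2d, -0.39 to 0.41 for LOC_Os07g43740, -1.88 to 0.54 for LOC_Os03g56930 and -0.62 to 0.23 for LOC_Os05g50500. The causes were not tested. Depth limits LOC_Os03g56930 and LOC_Os05g50500 most, with 0 to 14 and 0 to 40 counts per drought library.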
